A study of Mus musculus with 6 samples.

Results

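The genes described here encode the secreted Wnt proteins and the molecules that receive or blunt them at the cell surface. They comprise the Wnt ligands, their frizzled receptors, the co-receptors Lrp5 and Lrp6, the R-spondins, the Dkk, Sfrp and Wif1 antagonists, and the canonical Wnt readouts Axin2 and Lef1. They were taken by gene symbol, and 38 of the 20173 genes in the table were members.

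RNA was sequenced from cultured cells labelled as neurons of the sympathetic ganglion. The study's RNA-seq methods name sympathetic chains as the source, although the isolation protocol they refer to names dorsal root neurons as the cells dissected. The study also stained axons in its sympathetic neuron cultures for TH. There were 6 libraries. Slit2fl/fl mice, with floxed Slit2 alleles, gave 3, and Slit2th mice gave the other 3, their floxed Slit2 being deleted by Cre under the promoter of Th (tyrosine hydroxylase). The study's methods give 3-week-old male mice for both groups and 4 to 5 days of culture in neural medium with B27, and no source used here says whether cells of several animals were pooled. Nothing in the labels ties the libraries to separate animals or cultures, so the p-values measure the spread between these libraries, which may be technical.

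Wnt proteins are secreted lipid-modified signals that bind frizzled receptors. With an Lrp5 or Lrp6 co-receptor they stabilise β-catenin, which then acts with TCF/LEF factors in the nucleus, while other Wnt signals work without β-catenin. In sympathetic neurons, Wnt signalling is known for its part in axon growth and branching, with Wnt5a and Fzd3 among the molecules studied there.

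Slit2, the targeted gene, had counts of 139, 85 and 77 with Slit2 floxed and of 17, 24 and 27 in Slit2th. Its level was 47.8 ± 6.33 CPM (counts scaled to a common library size, SD, n = 3) against 13.9 ± 2.12 (SD, n = 3), and the groups did not overlap (log2 fold change -1.78, SE 0.37, edgeR quasi-likelihood adjusted p = 0.422). Library totals ranged from 1255939 to 3155406 counts, so that 3 counts, taken here as the detection floor, corresponded to 0.961 to 2.65 CPM. Over log2 CPM of all tested genes, replicate 1 of each group correlated with its own group at Pearson's r of 0.842 to 0.869, whereas replicates 2 and 3 correlated at 0.938 in Slit2fl/fl and 0.965 in Slit2th. Both libraries numbered 1 therefore stood apart from their groups. The sympathetic neuron markers gave little support to the label. Th was at 0 counts in every library, and Phox2a, Npy, Snap25, Prph and Elavl4, named after their values were seen, had 1 to 4 counts over all 6 libraries together. The pan-neuronal genes Tubb3 and Uchl1 had 1710 and 1153 counts, against 17209 and 14135 counts of the glial genes S100b and Cdh19. In these bulk samples, fewer cells of a type and less RNA per cell cannot be told apart.

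Of the 38 members, 19 reached a CPM of 1 in at least 3 libraries and were tested. Another 13 were counted but stayed under that filter, and 6 had no count in any library. Members were represented by 4428 counts in all. Fzd3, Fzd8, Lrp6 and Fzd1, grouped after their values were seen, held 3651 of these, and their share was 80.7%, 85.0% and 86.6% in the Slit2fl/fl libraries against 85.9%, 78.9% and 81.0% in Slit2th. Receptors and a co-receptor thus made up most of the signal, with similar shares in the groups.

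To ask whether loss of Slit2 was accompanied by a different level of these genes, each gene was tested by quasi-likelihood in edgeR, with p adjusted over all 12152 genes tested (Benjamini-Hochberg). No member passed an adjusted p of 0.05 (0 of 19, adjusted p = 0.422 to 0.991), and neither did any other gene (0.0% of genes tested, smallest adjusted p = 0.357). DESeq2, edgeR's exact test and limma-voom also called 0 members, while over all genes they called 34, 16 and 0, although DESeq2 gave no adjusted p for some low members, Wnt4, Wnt10b, Rspo1 and Lef1 included. At an unadjusted p under 0.05, 1 member was lower in Slit2th, against 6.78% of all genes tested, and 1 was higher, against 3.99%. These were Rspo1 and Wnt4. In normalized CPM, 0 members had every Slit2th library below every Slit2fl/fl library, which 9.72% of all genes did, and 1 member, Axin2, had every Slit2th library above, which 8.74% of all genes did. The fitted log2 fold change was positive for 11 and negative for 8 of the members tested, with a median of 0.12 against -0.05 over all genes tested. Leaving out Axin2, whose counts never exceeded the detection floor and which was tested because of its Slit2th libraries, the median was 0.06.

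**Figure D1:**
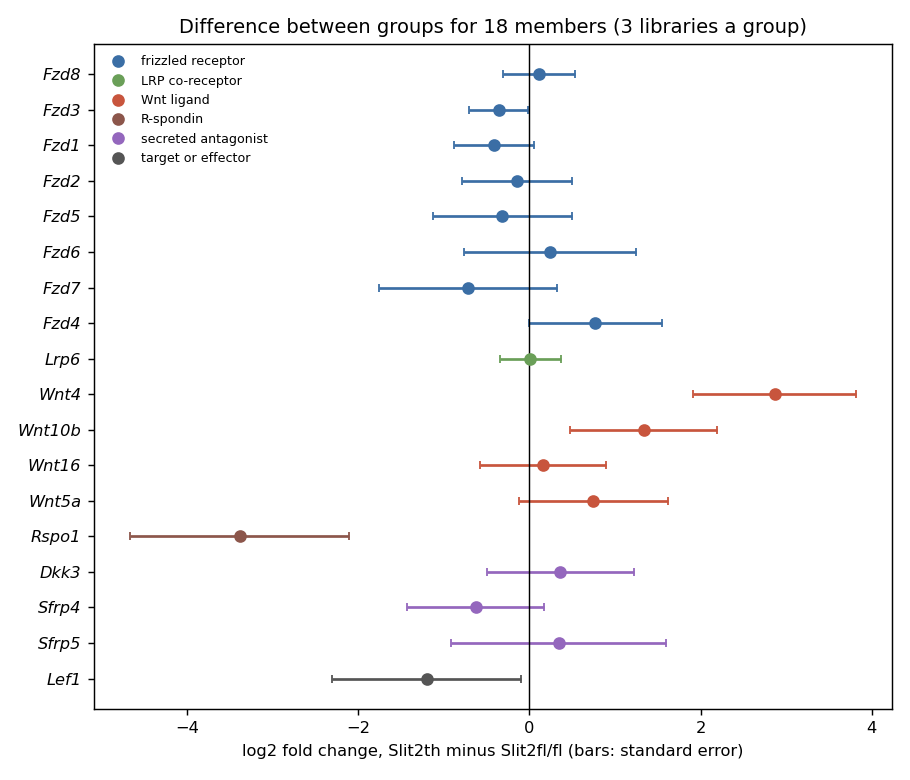
Log2 fold change of 18 tested members, Slit2th minus Slit2fl/fl, with its standard error as the bar (n = 3 libraries a group). Points are coloured by class and ordered within it by level, Axin2 is left out because its counts did not exceed 3, and Wnt4 and Rspo1 lie farthest from 0, at 2.87 and -3.39.

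The frizzled receptors were the most abundant class. Of the 9 in the table, 8 were tested and 6 were counted in all 6 libraries. Fzd10 had a single count. Per kilobase of exon, which allows levels of different genes to be set side by side, Fzd8 led with a mean of 15.9 CPM per kb over the 6 libraries, followed by Fzd3 at 12.4 and Fzd1 at 5.36. These lay above 81.2%, 77.4% and 59.2% of tested genes, respectively, whose median was 3.67 CPM per kb. The other 5 tested frizzled genes lay between 0.435 CPM per kb for Fzd4 and 1.83 CPM per kb for Fzd2. The values of Fzd8 and Fzd3 overlapped across libraries, so their order was not separated by the spread.

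**Figure D2:**
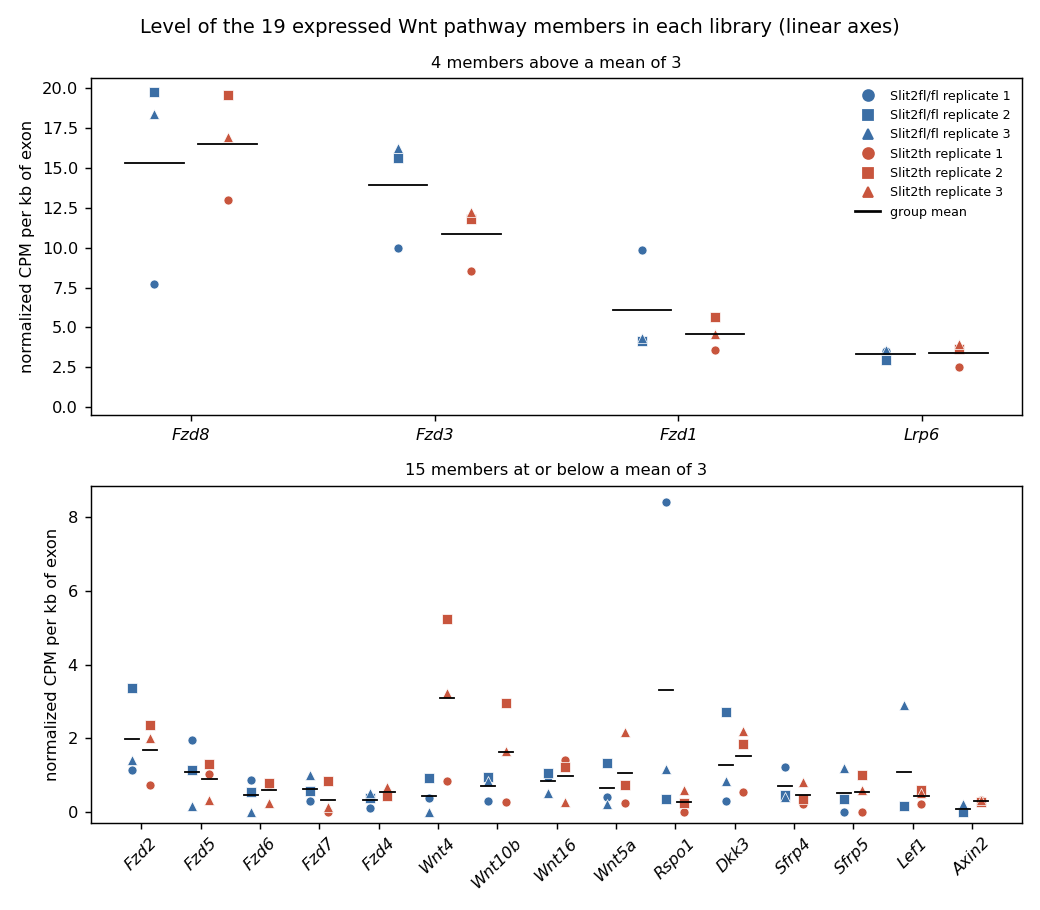
Normalized CPM per kb of exon for the 19 tested members, with each point a library, its shape the replicate number and the black line the group mean. The upper panel holds the 4 members with a mean above 3, led by Fzd8 and Fzd3, and the lower panel the other 15, where single high libraries stand out for Rspo1 and Lef1.

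Fzd8 is a single-exon gene (GRCm38, chromosome 18, 9212163 to 9218136, plus strand) whose product can work with Lrp6 in the β-catenin branch. Its normalized level was 46.1, 118 and 109.7 CPM for Slit2fl/fl against 77.7, 116.9 and 101 CPM for Slit2th. Replicate 1 was the lowest of each group, and the groups overlapped. The log2 fold change was 0.12 (SE 0.42, 95% interval -0.84 to 1.07, edgeR adjusted p = 0.920).

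Fzd3, a receptor with known functions in axon guidance and planar cell polarity, lies on the minus strand of chromosome 14 (65192449 to 65262463), with 8 merged exons. Its level was 127.8, 200.3 and 208.1 CPM in Slit2fl/fl against 109.4, 151.2 and 156.9 CPM in Slit2th. Every Slit2th library was below Slit2fl/fl replicates 2 and 3, but replicate 1 of Slit2fl/fl fell among the Slit2th values. The log2 fold change was -0.36 (SE 0.35, 95% interval -1.14 to 0.42, edgeR adjusted p = 0.680, exact permutation p = 0.3). With offsets corrected for GC content it was -0.63 (edgeR adjusted p = 0.444), past the unadjusted threshold of 0.05. It also passed that threshold with those offsets and the replicate number as a block (-0.64, edgeR adjusted p = 0.389). Without replicate 1 of both groups it was -0.42 (edgeR adjusted p = 0.272) and passed too, as 1999 of 11473 genes did. In no other alternative did Fzd3 pass it.

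Fzd1, a receptor mainly linked to β-catenin signalling, is a single-exon gene on the minus strand of chromosome 5 (4753839 to 4758035). Its level was 41.3, 17.5 and 18.2 CPM in Slit2fl/fl against 15, 23.9 and 19.2 CPM in Slit2th. Slit2fl/fl replicate 1 exceeded every other library, and the remaining 5 lay close together. The log2 fold change of -0.41 (SE 0.47, edgeR adjusted p = 0.726) became 0.12 without that library.

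As a share of the summed frizzled level per kb, Fzd8 took 24.2%, 43.4% and 43.7% in Slit2fl/fl against 46.2%, 45.8% and 45.4% in Slit2th. Fzd3 took 31.3%, 34.3% and 38.7% against 30.4%, 27.6% and 32.9%. Fzd1 took 30.9%, 9.16% and 10.3% against 12.7%, 13.3% and 12.3%. The Slit2th libraries were thus alike in frizzled composition, whereas Slit2fl/fl replicate 1 had less Fzd8 and more Fzd1 than the others of its group.

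**Figure D3:**
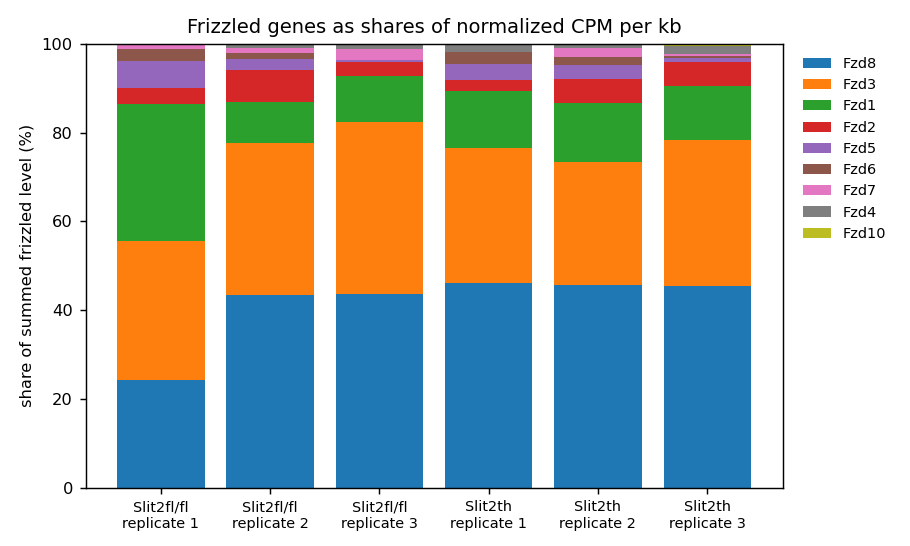
Each bar is a library, divided into the percentages of the summed normalized CPM per kb of the 9 frizzled genes. Fzd8, Fzd3 and Fzd1 fill most of every bar, and Slit2fl/fl replicate 1 has the lowest Fzd8 share, 24.2%, and the highest Fzd1 share, 30.9%.

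Among the low frizzled genes, the fitted log2 fold changes were -0.15 for Fzd2, -0.32 for Fzd5, 0.24 for Fzd6, -0.72 for Fzd7 and 0.77 for Fzd4. Their standard errors ranged with the other frizzled genes from 0.346 to 1.04, and adjusted p in the class from 0.680 to 0.937. Fzd4, a receptor also bound by norrin and detailed after its values were seen, had counts of 2, 4 and 6 against 4, 6 and 8, with all but Slit2th replicate 2 (2.86 CPM) above the Slit2fl/fl maximum of 3.41 CPM. Exons of Fzd5 and Fzd6 overlap genes on the opposite strand by 1233 and 152 bases, and since the strand setting of the counting is not given in the sources used here, reads in those stretches cannot be told from reads of the overlapping genes.

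The co-receptors differed in detection. Lrp6, which with a frizzled forms the receptor for β-catenin signalling, had 48.4, 40.2 and 48.9 CPM in Slit2fl/fl against 34.4, 49.6 and 54.2 CPM in Slit2th. The groups overlapped throughout, with a log2 fold change of 0.01 (SE 0.35, 95% interval -0.78 to 0.81, edgeR adjusted p = 0.991). Lrp6 averaged 3.36 CPM per kb, above 47.7% of tested genes. Lrp5, its close relative, had counts of 1, 2 and 0 against 1, 0 and 3, so its level lay at or under the detection floor in every library.

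The Wnt ligands were low. Of the 13 in the table, 4 were tested (Wnt4, Wnt10b, Wnt16 and Wnt5a), 5 were counted but under the filter and 4 (Wnt6, Wnt8b, Wnt10a and Wnt11) had no count. Summed over the ligands, counts were 38, 34 and 13 in Slit2fl/fl against 14, 93 and 72 in Slit2th, against 746, 561, 616 and 248, 671, 520 for the frizzled genes. In CPM the ligand sums were 12.2, 22.04 and 7.39 against 12.4, 44.4 and 40.6, so Slit2th replicates 2 and 3 were the highest of the 6 libraries and Slit2th replicate 1 lay within the Slit2fl/fl range. All 4 tested ligands had a positive fitted difference, with a median log2 fold change of 1.04 against -0.05 over all genes tested. None passed the adjusted test (edgeR adjusted p = 0.422 to 0.939). The sign turned in 7 of 19 alternative fits for Wnt16 and 1 of 19 for Wnt5a, and in 0 of 18 each for Wnt4 and Wnt10b.

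Wnt4, a ligand known from kidney, gonad and muscle innervation, lies on the plus strand of chromosome 4 (137277489 to 137299726). Its counts were 5, 6 and 0 in Slit2fl/fl against 4, 46 and 24 in Slit2th, or 1.60, 3.89 and 0 CPM against 3.53, 21.95 and 13.6 CPM. The difference rested on Slit2th replicates 2 and 3, since Slit2th replicate 1 was below Slit2fl/fl replicate 2. The means were 1.83 ± 1.95 CPM and 13.0 ± 9.22 CPM (SD, n = 3 each), and the log2 fold change was 2.87 (SE 0.95, 95% interval 0.72 to 5.01, edgeR p = 0.0144, adjusted p = 0.422, two-sided exact permutation p = 0.2 on log2 CPM). With 3 against 3 libraries that permutation test cannot go below 0.1. Without Slit2th replicate 2 the log2 fold change was 2.27 and no longer past the unadjusted threshold, and with replicate 1 of each group left out it was 3.21 with an adjusted p of 0.0424 (edgeR, 2 libraries a group, where 377 of 11473 genes passed).

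Wnt10b, a ligand that favours bone over fat formation through β-catenin, had counts of 3, 5 and 5 in Slit2fl/fl against 1, 21 and 10 in Slit2th. Again Slit2th replicates 2 and 3 were highest and replicate 1 was the lowest of all in CPM (0.883). The log2 fold change was 1.34 (SE 0.86, edgeR adjusted p = 0.556, exact permutation p = 0.5).

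Wnt16, a ligand known for its part in cortical bone, had counts of 13, 7 and 4 against 7, 11 and 2. Its groups overlapped, with a log2 fold change of 0.16 (SE 0.73, edgeR adjusted p = 0.939).

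Wnt5a, a largely β-catenin-independent ligand that promotes sympathetic axon branching, was detailed after its values were seen and had counts of 10, 16 and 3 in Slit2fl/fl against 2, 12 and 30 in Slit2th. In CPM, Slit2fl/fl replicate 3 was lowest at 1.71, next to Slit2th replicate 1 at 1.77, and Slit2th replicate 3 was highest at 16.9. The log2 fold change of 0.74 (SE 0.87, edgeR adjusted p = 0.736) turned to -0.33 without Slit2th replicate 3. Its exons share 358 bases with Gm2670 on the opposite strand.

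Under the filter, the highest count in any library was 5 for Wnt2, 4 for Wnt7b, 2 for Wnt9a and 1 each for Wnt2b and Wnt5b. Wnt2 was counted only in Slit2th replicates 2 and 3 (2 and 5 counts), and Wnt7b only in Slit2fl/fl replicate 1. At this depth none of them could be compared. Wnt6 and Wnt10a, neighbours on chromosome 1 with 6.2 kb between them, were both without counts.

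**Figure D4:**
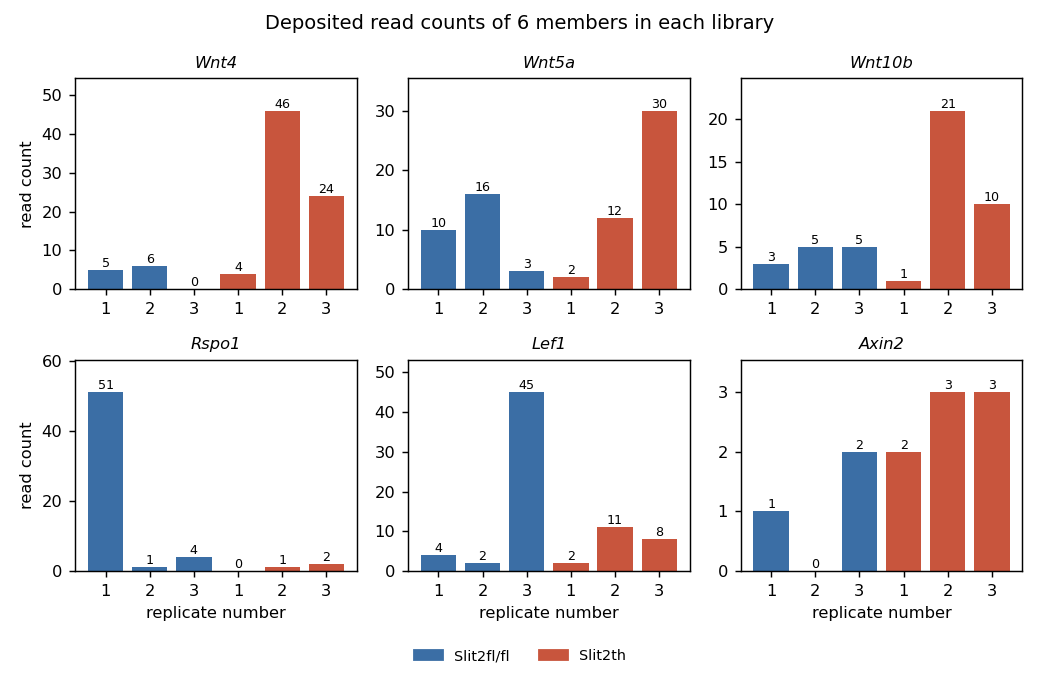
Deposited read counts of 6 members in each library, bars starting at 0 on a separate linear axis per gene, blue for Slit2fl/fl and red for Slit2th. Wnt4 and Wnt10b are highest in Slit2th replicates 2 and 3, Rspo1 counts come mainly from Slit2fl/fl replicate 1 (51) and Lef1 counts from Slit2fl/fl replicate 3 (45).

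R-spondins strengthen Wnt signals by sparing frizzled receptors from removal by ubiquitin ligases. Of 4 in the table only Rspo1 was tested. Its counts were 51, 1 and 4 in Slit2fl/fl against 0, 1 and 2 in Slit2th, or 16.3, 0.648 and 2.27 CPM against 0, 0.477 and 1.13 CPM. A single library, Slit2fl/fl replicate 1, held 51 of the counts, and the other 5 libraries lay between 0 and 4 counts with overlapping groups. The log2 fold change was -3.39 (SE 1.28, 95% interval -6.27 to -0.50, edgeR p = 0.0261, adjusted p = 0.430, exact permutation p = 0.2). Without Slit2fl/fl replicate 1 the gene no longer passed the filter, so no test could be made. Rspo2 and Rspo3 had at most 3 and 2 counts in a library, and Rspo4 had none.

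Slit2fl/fl replicate 1 also had the highest summed level of the sympathetic neuron markers, 587.9 CPM against 183.4 to 200.3 CPM in the other 5 libraries, and of the endothelial and mural markers, 130 and 91.9 CPM. Its neuronal sum came from Tubb3 (290.1 CPM), Uchl1 (236 CPM), Stmn2 (43.2 CPM) and Gap43 (18.6 CPM) alone. Th, Phox2a, Npy, Snap25, Prph and Elavl4 had no count in that library, so the sum does not show more sympathetic neurons there. In the other 5 libraries the endothelial sum was 42.1 to 57.4 CPM and the mural sum 18.5 to 50.2 CPM. The myelin gene Mbp, named after its values were seen, was at 1051 CPM there and at 88.3 to 137.9 CPM elsewhere. Their part in the high Rspo1 and Fzd1 values of that library was not tested.

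The secreted antagonists were sparse. Of 8, 3 were tested, 4 were counted under the filter and Dkk1, the classical Lrp6 blocker, had no count. Dkk3, a divergent Dkk protein whose role in Wnt signalling is less settled, was the highest at 1.40 CPM per kb, with counts of 3, 14 and 5 in Slit2fl/fl against 2, 13 and 13 in Slit2th. Its groups overlapped (log2 fold change 0.36, SE 0.86, edgeR adjusted p = 0.875). Sfrp4, a frizzled-related decoy that binds Wnt proteins, had counts of 16, 3 and 3 against 1, 3 and 6, with a log2 fold change of -0.63 (SE 0.80, edgeR adjusted p = 0.761) whose sign turned without Slit2fl/fl replicate 1 (0.11). Sfrp5, another decoy of that family, had counts of 0, 1 and 4 against 0, 4 and 2 (log2 fold change 0.34, SE 1.26, edgeR adjusted p = 0.921). Among those under the filter, Dkk4 reached 6 counts, all in Slit2fl/fl replicate 1, Dkk2 reached 3, and Wif1 and Sfrp1 reached 2. No antagonist exceeded 16 counts in a library.

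Axin2 and Lef1 are read as signs of β-catenin activity, Axin2 as a feedback inhibitor induced by the pathway and Lef1 as one of its nuclear factors. Because TCF/LEF factors bind short CTTTG-type elements in target genes, the 250 bases before a RefSeq start are shown for these readouts and, for contrast, for Fzd1, whose window held matches. The sequences are those of RefSeq on GRCm38.p6, in the direction of the gene, and the start farthest upstream was taken. It is the GENCODE start for Axin2, but lies 174 bases upstream of it for Lef1 and 181 for Fzd1. Capitals mark a match to CTTTGA or CTTTGT on either strand.
Axin2, chr11:108920099-108920348, plus strand: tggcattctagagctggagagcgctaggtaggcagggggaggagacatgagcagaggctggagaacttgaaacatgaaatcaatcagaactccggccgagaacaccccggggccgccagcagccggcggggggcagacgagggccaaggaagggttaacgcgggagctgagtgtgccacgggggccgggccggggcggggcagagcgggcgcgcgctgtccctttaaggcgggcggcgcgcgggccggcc
Lef1, chr3:131110047-131110296, plus strand: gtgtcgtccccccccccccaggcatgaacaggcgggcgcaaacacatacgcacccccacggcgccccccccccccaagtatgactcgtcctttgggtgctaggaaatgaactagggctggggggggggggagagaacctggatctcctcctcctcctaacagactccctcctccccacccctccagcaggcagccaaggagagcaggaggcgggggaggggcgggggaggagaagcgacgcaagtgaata
Fzd1, chr5:4758217-4758466, minus strand: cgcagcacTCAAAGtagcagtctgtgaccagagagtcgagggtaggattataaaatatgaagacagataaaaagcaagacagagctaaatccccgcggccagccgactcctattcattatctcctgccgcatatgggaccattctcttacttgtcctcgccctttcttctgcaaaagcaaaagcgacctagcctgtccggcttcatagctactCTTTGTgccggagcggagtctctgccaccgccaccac
The windows of Axin2 and Lef1 held no match, and that of Fzd1 held 2, beginning 242 and 37 bases before that RefSeq start. Lef1 has 4 entries, of which another held 3 matches. An entry was found for 23 of the 38 members, 8 of which had a match, and 8 of their 29 windows (27.6%) held one, as did 9067 of all 32817 windows (27.6%). Windows of members thus held a match no more often than all windows together, and no share per gene was computed over all genes.

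Axin2 (chromosome 11, 108920349 to 108950783, plus strand) had counts of 1, 0 and 2 in Slit2fl/fl against 2, 3 and 3 in Slit2th. In CPM these were 0.320, 0 and 1.14 against 1.77, 1.43 and 1.69, so the groups did not overlap. The separation came partly from depth, because Slit2fl/fl replicate 3 and Slit2th replicate 1 had 2 counts each. Within Slit2fl/fl only replicate 3 reached a CPM of 1, so the gene was tested because of its Slit2th libraries. Its place above Slit2fl/fl therefore adds no support. All libraries were at or under the detection floor, no fold is given, and the tests gave an edgeR p of 0.140 (adjusted p = 0.546) and an exact permutation p of 0.1, the smallest possible. At 0.192 CPM per kb, Axin2 exceeded 1.60% of tested genes.

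Lef1 (chromosome 3, 131110471 to 131224356, plus strand) had counts of 4, 2 and 45 in Slit2fl/fl against 2, 11 and 8 in Slit2th. Slit2fl/fl replicate 3 alone was high, at 25.6 CPM against 1.28 to 5.25 CPM in the other 5 libraries. The log2 fold change was -1.20 (SE 1.10, edgeR adjusted p = 0.663, exact permutation p = 1.0) and turned to 1.49 without that library. Exons of Lef1 share 1208 bases with Gm43352 on the opposite strand, and those of Axin2 share 209 with Gm11670.

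The rest of the pathway was examined in a list of 84 further Wnt genes, of which 82 were in the table and 71 were tested. None passed the adjusted test (edgeR adjusted p = 0.422 to 0.994). At an unadjusted p under 0.05, 3 were higher and 5 lower in Slit2th, or 4.23% and 7.04% of those tested beside 3.99% and 6.78% of all genes, with 38 positive and 33 negative fitted differences and a median log2 fold change of 0.07, against -0.05 over all genes tested. Of the 22 intracellular genes of the β-catenin branch, 12 lay above the median level of tested genes (3.67 CPM per kb) and 10 did not. The highest in the list per kb were Ccnd1, a cyclin induced by many growth signals, at 165.5 CPM per kb, followed by the kinase Csnk1a1 at 39.2, the scaffold Apc at 34.2, the kinase Gsk3b at 32.1 and the catenin Ctnnd1 at 30.5.

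Pygo1, a nuclear β-catenin co-factor, had 108, 72 and 119 counts in Slit2fl/fl and 289, 179 and 276 in Slit2th. The lowest Slit2th level, 85.4 CPM, exceeded the highest of Slit2fl/fl, 67.7 CPM (log2 fold change 1.74, SE 0.47, edgeR adjusted p = 0.422). Gpc3, a cell-surface proteoglycan that binds Wnt proteins, had 26, 24 and 18 counts against 27, 72 and 59 and also did not overlap in CPM (log2 fold change 1.44, adjusted p = 0.422). Of the 71 genes, 6 had every Slit2th library below Slit2fl/fl and 6 had every one above, as 9.72% and 8.74% of all genes tested did. The third gene at the unadjusted threshold on the higher side, the receptor Tnfrsf19, had at most 6 counts in a library. It reached a CPM of 1 only in Slit2th libraries and so passed the filter through them alone. Its direction and its place among the 6 above therefore add no support.

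On the lower side were Nkd2, a feedback inhibitor acting on Dishevelled (log2 fold change -1.11), Frat2, a Gsk3-binding protein (-1.41), Cby1, a β-catenin antagonist (-2.13), and the planar polarity genes Prickle1 (-1.47) and Celsr1 (-2.55). Nkd2 had 134.8, 77.1 and 77.9 CPM against 54.7, 42.0 and 38.4 CPM, without overlap (edgeR adjusted p = 0.422), and Frat2, Prickle1 and Celsr1 did not overlap either. Cby1 and Celsr1 counts came mainly from Slit2fl/fl replicate 1, with 119 and 41 there and at most 10 and 4 in any other library.

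**Figure D5:**
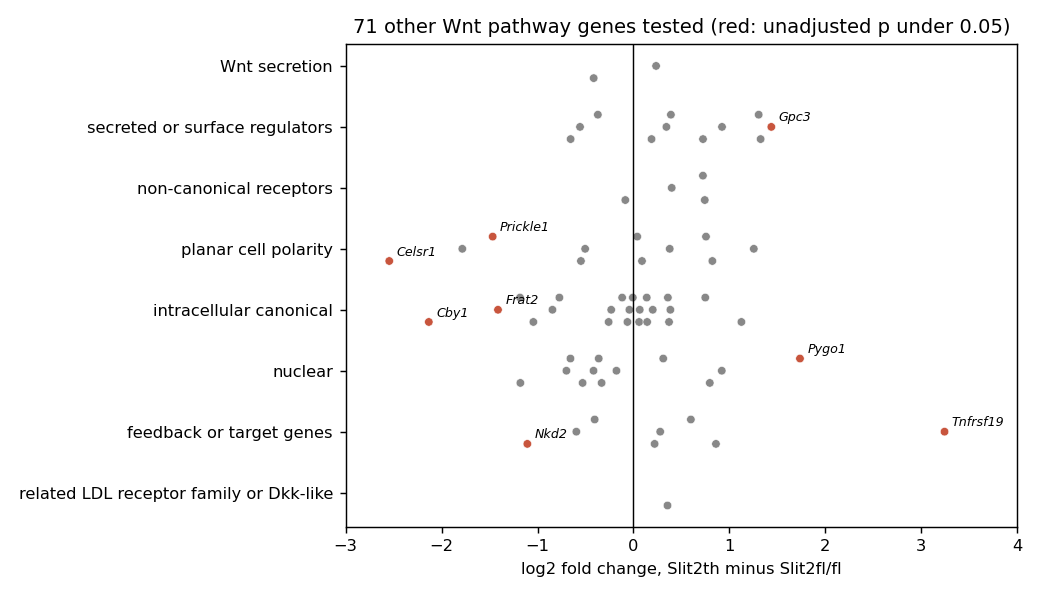
Log2 fold change (Slit2th minus Slit2fl/fl) of 71 other Wnt pathway genes, each point a gene, by role, with small vertical offsets for legibility. The 8 genes at an unadjusted edgeR p under 0.05 are red and named, 3 to the right of 0 and 5 to the left, and none passed the adjusted test.

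Markers of other cell types were present and moved with the groups to different degrees. Summed macrophage markers, led by Lyz2, Aif1 and C1qa, were 75.9, 59.6 and 23.9 CPM in Slit2fl/fl against 594, 105 and 121.9 CPM in Slit2th, without overlap. Aif1 (206, 0 and 1 counts in Slit2th), not tested, and C1qa (84, 4 and 0) came mainly from Slit2th replicate 1. Of 8 tested, 5 had an unadjusted edgeR p under 0.05, all higher. Among them, Mrc1 and Ptprc passed the filter only through Slit2th, so their direction adds no support. Adgre1, named after its values were seen, had 0.640, 0.648 and 1.14 CPM in Slit2fl/fl against 6.18, 6.20 and 7.34 CPM in Slit2th. It was tested because of its Slit2th libraries, so its direction adds no support either. Over all genes tested, 3.99% were higher and 6.78% lower at that threshold. Summed markers of Schwann or satellite glia, led by S100b, Cdh19 and Sox10, were 4306, 4518 and 5009 CPM against 5056, 4532 and 4422 CPM, overlapping (8 tested, 0 higher and 1 lower at that threshold). The lower one was Mbp, which rested on Slit2fl/fl replicate 1. Within the sum, genes moved in opposite directions, 3 with a positive and 5 with a negative fitted difference. S100b averaged 1910 CPM in Slit2fl/fl against 1268 CPM in Slit2th, overlapping, and Cdh19 909.4 against 1769 CPM, without overlap. Fibroblast markers, led by Col1a2, Dcn and Col1a1, were 2374, 3215 and 2586 CPM against 3094, 4041 and 4614 CPM, overlapping, with 3 of 8 tested higher.

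The proliferation genes, led by Top2a, Mki67 and Pcna, were 318, 401.8 and 409.9 CPM against 164.1, 267.6 and 293.5 CPM (2 of 8 lower), and the perineurial markers, led by Itgb4, Tenm2 and Slc2a1, 223.5, 216.5 and 127.4 CPM against 95.3, 121.7 and 116.8 CPM (2 of 5 lower), both without overlap. Fitted differences were negative for 7 and positive for 1 of the proliferation genes. They were negative for 4 and positive for 1 of the perineurial genes, Cldn1 (log2 fold change 1.09). The perineurial sum leaned on single Slit2fl/fl libraries. Itgb4 had 155.9 CPM in replicate 1 and at most 57.0 CPM elsewhere, and Tenm2 118.6 CPM in replicate 2 and at most 49.1 CPM elsewhere. Mural markers, led by Acta2, Rgs5 and Abcc9, ranged from 18.8 to 91.9 CPM and from 18.5 to 50.2 CPM (0 of 5 passed the unadjusted threshold). Endothelial markers, led by Egfl7, Emcn and Cdh5, had 1 of 5 lower, and of the sympathetic neuron markers, led by Tubb3, Uchl1 and Stmn2, 0 of the 4 tested passed. Fibroblast markers, like the Wnt ligands, were highest in Slit2th replicates 2 and 3, and their part in the Wnt4 and Wnt10b values was not tested. None of these marker genes passed the adjusted test (edgeR).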

How the data were processed

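The authors sequenced TruSeq RNA libraries and deposited raw read counts per gene in a single table. Their methods name HISAT2 and the mm10 genome, while the submitters' processing notes list GRCm39. The counting program, strand setting and annotation release are not given in the sources used here. Libraries held 1255939 to 3155406 counts, and the 3-count floor covers counting error only, whereas the edgeR intervals include the spread between libraries.

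Counts were scaled by TMM and tested with edgeR 4.0.16 (R 4.3.3, glmQLFit and glmQLFTest, no covariates) for genes reaching a CPM of 1 in 3 or more libraries, with Benjamini-Hochberg adjustment over 12152 genes. Fold changes are Slit2th minus Slit2fl/fl on a log2 scale (common biological coefficient of variation 50.4%). Permutation tests were exact and two-sided. DESeq2 1.42.0, limma 3.58.1 (voom), other scalings, filters, GC-corrected offsets, thinning, a replicate block and omitted libraries served as alternatives. Scripts were tested on simulated data. Exon lengths and coordinates came from GENCODE M21 (GRCm38), with 20159 of 20173 identifiers matched, and promoters from RefSeq. No protein or other genome sequence was used.

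The members and lists were chosen with earlier results of these data known. Values per library are given for the 3 highest tested members of each class per kb, members at an unadjusted p under 0.05 or without overlap between groups, Lrp5, Lrp6, Axin2 and Lef1. Fzd4, Wnt5a and Mbp fall outside that rule and were added after their values were seen. From the other pathway list, genes at that threshold and the 5 highest per kb are named, and from each marker list the 3 highest. Gap43, Adgre1, Cldn1, Mrc1 and Ptprc were also named after their values were seen, and the counts of Aif1 and C1qa were added likewise. A marker of the glial list is not reported here. Choices made after seeing values are marked.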

Additional observations from a re-analysis of the deposited data

How the results depend on the processing

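No member passed the adjusted test in any alternative except with replicate number 1 of both groups left out, where 1 did (Wnt4). DESeq2 gave no adjusted p for it, and its log2 fold change stayed positive, between 2.25 and 3.74. Wnt4, Wnt10b, Rspo1, Fzd3, Fzd4, Fzd7 and Axin2 kept their sign in every alternative that could be fitted. Rspo1 could not be tested when Slit2fl/fl replicate 1, Slit2fl/fl replicate 3 or Slit2th replicate 3 was left out. The number of members lower at an unadjusted p under 0.05 was 0 under limma-voom, a CPM of 1 in all libraries or the replicate block, 2 with GC-corrected offsets (Rspo1 and Fzd3) and 0 to 1 with single libraries left out. It was 1, Fzd3 and not Rspo1, with those offsets and the block, and with replicate number 1 of both groups left out. The number higher was 2 with no filter or thinned to the smallest total, 0 with a CPM of 1 in all libraries, and 0 to 2 with single libraries left out. Members without overlap numbered 1 lower (Fzd3) with GC-corrected offsets, where 8.81% of all genes did so, and 2 higher (Fzd4 and Wnt4, not Axin2) when thinned, where 9.0% of all genes did so. The number expressed was 9 with a CPM of 1 in all libraries, 5 with 3 counts in every library and 32 with any count. The median log2 fold change of the members tested ranged from -0.14 to 0.29. The cause of these differences was not tested beyond the change of filter or of libraries itself.

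Replicate numbers did not clearly pair the libraries. Deviations of same-numbered libraries correlated at 0.292, 0.245 and 0.0808, and not every library correlated best with its own number. Slit2fl/fl replicate 2 and Slit2th replicate 3 correlated at 0.255. Between a library numbered 1 and those numbered 2 or 3 of the other group, correlations were -0.312 to -0.0814, so some structure by number was shared. With the replicate block, 1614 genes passed the unadjusted threshold against 1309, and the log2 fold change was 2.72 for Wnt4 (edgeR adjusted p = 0.282) and -2.52 for Rspo1 (adjusted p = 0.409, no longer past the unadjusted threshold).

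The sign turned in 41 of 343 alternative values, over 12 members. With GC-corrected offsets, log2 fold changes were 0.01 for Fzd5, 0.081 for Fzd1, -0.043 for Lrp6, 0.17 for Fzd2 and -0.19 for Wnt16. With these offsets and the replicate block they were 0.14 for Fzd5, 0.051 for Fzd1, -0.046 for Lrp6, 0.13 for Fzd2 and -0.24 for Wnt16, and with the block alone -0.0076 for Lrp6. With limma-voom they were 0.21 for Lef1, 0.017 for Fzd2 and -0.087 for Wnt16, and thinned, 1.46 for Sfrp4. With replicate number 1 of both groups left out they were 0.39 for Fzd5, -0.076 for Fzd8, 0.26 for Fzd1, 0.35 for Sfrp4 and -0.050 for Wnt16. With single libraries left out, the ranges were -0.88 to 0.48 for Fzd5, -0.33 to 1.70 for Wnt5a, -0.21 to 0.35 for Fzd8, -1.74 to 1.49 for Lef1, -0.69 to 0.12 for Fzd1 and -0.11 to 0.18 for Lrp6. They were -0.37 to 1.13 for Fzd6, -0.16 to 1.53 for Dkk3, -0.44 to 0.47 for Fzd2, -1.29 to 0.11 for Sfrp4, -0.36 to 0.79 for Sfrp5 and -0.17 to 0.63 for Wnt16.

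Of the 38 members, 13 were counted in all 6 libraries.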
